A study of Mus musculus with 2 samples.

Results

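The nuclear-encoded genes of oxidative phosphorylation were described in 2 total RNA-seq libraries of mouse bone marrow cells labelled megakaryocyte progenitor (CFU-Meg, the colony-forming precursor of the platelet-producing megakaryocyte). The genes were chosen by name: every protein-coding Ensembl row whose symbol begins with Nduf, Uqcr, Cox4 to Cox8 or Atp5, together with Sdha, Sdhb, Sdhc, Sdhd, Cyc1 and Cycs. This gave 95 members among 43346 Ensembl gene rows, of which 21474 were protein-coding. The donors were male mice of the strain C57BL/6J, aged 5 to 6 weeks, with no allele or treatment given. The starting amount was 1 ng of RNA per library. They are separate biosamples under 1 donor identifier, so the spread between them (SD, n = 2) may be smaller than the spread between animals. There is 1 group and no contrast, so the levels are descriptive.

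Oxidative phosphorylation takes place in the inner mitochondrial membrane. Complex I (NADH dehydrogenase) and complex II (succinate dehydrogenase) pass electrons to ubiquinone, complex III passes them to cytochrome c, complex IV (cytochrome c oxidase) passes them to oxygen, and complex V (ATP synthase) makes ATP from the proton gradient that complexes I, III and IV build. Most subunits are encoded in the nucleus and imported. A few hydrophobic ones are encoded in the mitochondrial genome, and several subunits of complex IV have a second gene that is used in a restricted set of tissues such as heart, skeletal muscle, lung or testis.

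Levels are given as TPM, a relative abundance per transcript length that has a fixed total over all rows of a library. Replicates 1 and 2 held 82746658 and 75652762 expected counts, and for the median member 1 TPM was worth 35.2 and 31.6 reads. The label was checked against lineage markers. Of 11 megakaryocyte markers, 2 reached 1 TPM in both libraries, the platelet genes Tubb1 and Gp6 had no reads, and the summed level of the list was 11.2 and 6.80 TPM in replicates 1 and 2. All 8 granulocyte and monocyte progenitor markers were above 1 TPM in both, with a summed level of 16537 and 15532 TPM, led by Mpo, the neutrophil myeloperoxidase. Of 9 erythroid markers, 7 reached 1 TPM in both, with a summed level of 709 and 369 TPM. Car1, a carbonic anhydrase gene, led them with 511.9 and 242.3 TPM. The data therefore go against the label, and the samples are called the libraries labelled megakaryocyte progenitor. In bulk RNA, fewer cells of a type and less RNA per cell cannot be told apart, and the part of cell composition in the levels below was not tested.

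Nearly all members were expressed, and the exceptions were tissue isoforms. The median member stood at 72.2 TPM in replicate 1 and 81.5 TPM in replicate 2 (76.8 ± 6.58, SD, n = 2), against 0.62 and 0.54 TPM for the median protein-coding gene. A level of 1 TPM or more in both libraries was reached by 88 of 95 members (92.6%) and by 9924 of 21474 protein-coding genes (46.2%). A level of 100 TPM or more in both was reached by 35 members (36.8%) and by 553 protein-coding genes (2.58%). Of the remaining 7 members, 6 lay under 1 TPM in both libraries and 1, Cox6a2, lay above it in replicate 1 only. All 7 are tissue isoforms. The members summed to 10058 and 10348 TPM, which was 2.51% and 2.55% of the TPM of nuclear protein-coding genes.

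The median level differed between the complexes. Counting structural subunits without assembly factors and tissue isoforms, the median was 66.8 and 68.9 TPM for the 36 subunits of complex I in replicates 1 and 2. The 4 subunits of complex II had a median of 79.5 and 81.3 TPM. For the 9 subunits of complex III it was 80.7 and 87.7 TPM. The 11 widely expressed subunits of complex IV had a median of 219.6 and 234.8 TPM, and the 16 subunits of complex V one of 197.7 and 210.2 TPM. Complexes IV and V thus lay above complexes I, II and III in both libraries. The ranges of complexes II and III over the 2 libraries overlapped, although complex III had the higher median within each library.

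**Figure D1:**
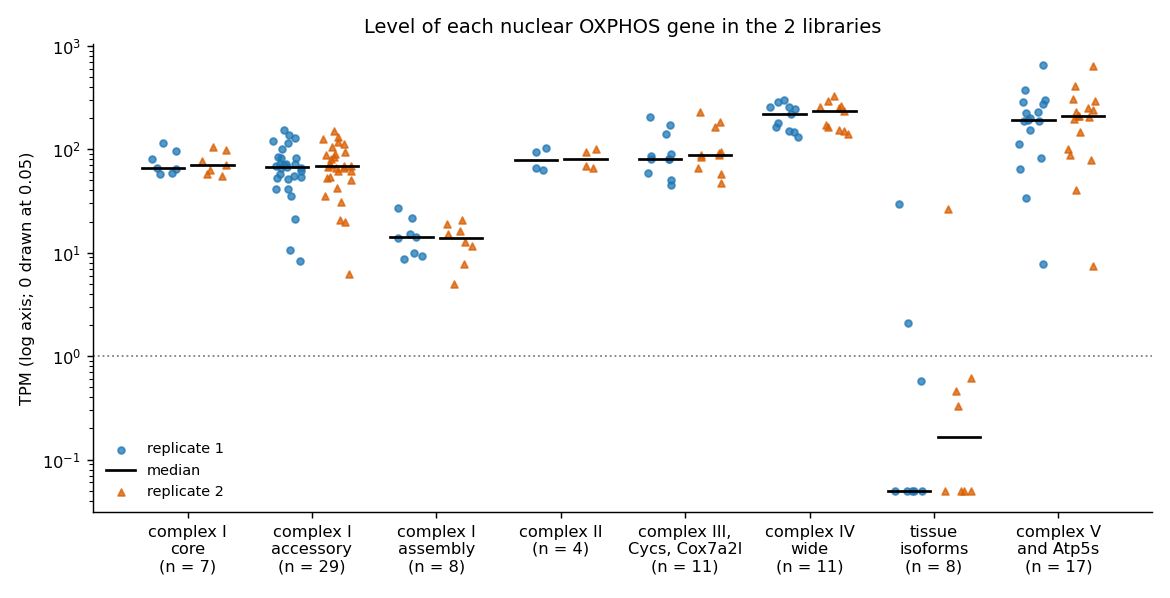
TPM (log axis) of each of the 95 members in replicate 1 (blue circles) and replicate 2 (orange triangles), grouped by complex and role; black lines are medians, the dotted line is 1 TPM and values of 0 are drawn at 0.05. Complex IV and complex V sit highest, complex I assembly factors have a median of 14.03 TPM, and most tissue isoforms lie under 1 TPM.

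Within complex I, the largest complex, the 7 nuclear core subunits, which carry the flavin and iron-sulfur clusters, had a median of 66.4 and 71.3 TPM. The 29 accessory subunits, which surround the core, had a median of 67.1 and 68.4 TPM. Among the core subunits, Ndufv2, an iron-sulfur subunit, had 95.6 and 98.1 TPM. The lowest by mean were Ndufv1, which binds flavin and NADH, with 59.0 and 54.9 TPM, and Ndufs1, the large iron-sulfur subunit, with 57.7 and 63.7 TPM. Ndufs7, with 66.4 and 57.4 TPM, lay below Ndufs1 in replicate 2, so the order of these neighbours was not the same in both libraries. The accessory subunits spanned a 20.7-fold range of mean TPM. At the top of the accessory subunits by gene TPM stood Ndufb8 with 152.1 and 149.9 TPM and Ndufb9 with 137.1 and 132.0 TPM. From protein-coding transcripts only, Ndufb8 had 56.2 and 58.1 TPM, while Ndufb9 was unchanged. The 2 lowest by gene TPM were Ndufb4, with 10.7 and 20.7 TPM, and Ndufa11, with 8.33 and 6.27 TPM. From protein-coding transcripts only, Ndufc1 had 2.94 and 1.75 TPM and Ndufa5 had 0.19 and 6.39 TPM. Ndufa11 is quantified through 1 transcript of 2661 bases, and its 1306 and 913 reads, more than the 511 and 651 of Ndufb4, are divided by that length.

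The 8 complex I assembly factors of the rule, which help to build the complex and are not part of it, lay lower than its subunits. Their median was 14.04 and 14.03 TPM. By mean TPM Ndufaf4 was highest with 26.9 and 19.1 TPM, then Ndufaf2 with 21.9 and 20.9 TPM, and their order was the opposite in replicate 2. Ndufaf8 had 10.0 and 7.71 TPM, and Ndufaf5, which hydroxylates a core subunit, was lowest with 8.68 and 4.98 TPM. A list of 34 assembly and regulatory factors of all complexes that fall outside the symbol rule had a similar median of 11.05 and 9.66 TPM, and all 34 reached 1 TPM in both libraries. Its extremes were Atpif1, the inhibitor of ATP synthase hydrolysis, with 293.8 and 281.2 TPM, and Lyrm7, a chaperone of the Rieske protein, with 2.05 and 1.65 TPM.

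The 4 genes of complex II, the enzyme shared with the tricarboxylic acid cycle, lay close together. Sdhd, a membrane anchor, had 103.4 and 101.8 TPM, and Sdha, the flavoprotein, had 93.2 and 93.5 TPM. Sdhb, the iron-sulfur subunit, had 65.8 and 69.1 TPM, and Sdhc, the other anchor, had 63.0 and 66.1 TPM. By gene TPM the order Sdhd, Sdha, Sdhb, Sdhc was the same in both libraries, but the levels of Sdhb and Sdhc overlapped across them. The highest mean gene TPM was 1.59 times the lowest. When only protein-coding transcripts are summed, Sdha had 49.5 and 50.1 TPM. That was below Sdhb with 65.0 and 68.2 TPM and Sdhc with 63.0 and 66.1 TPM. The 13 other genes of the tricarboxylic acid cycle had a median of 52.9 and 52.4 TPM, from Dlst at 21.4 and 17.6 TPM to Mdh2 at 171.2 and 169.3 TPM. The 16 glycolysis genes had a median of 84.6 and 95.9 TPM.

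In complex III, Uqcrh, the hinge protein at the cytochrome c site, was highest with 204.0 and 227.1 TPM, followed by Uqcrb with 172.0 and 184.8 TPM. The lowest were the core protein gene Uqcrc1 with 59.5 and 65.3 TPM and Cyc1, which encodes cytochrome c1, with 49.96 and 47.4 TPM. Cox7a2l, a factor that links complexes III and IV, had 89.5 and 93.9 TPM. Cycs, which encodes somatic cytochrome c itself, had 45.3 and 57.8 TPM, while Cyct, the testis form of cytochrome c, had no reads in either library.

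By gene TPM complex IV was even among its widely expressed subunits, all 11 of which exceeded 100 TPM in both libraries. Cox4i1, the regulatory subunit IV, had 300.8 and 327.2 TPM, and Ndufa4, once assigned to complex I and now counted with complex IV, had 285.7 and 295.1 TPM. The lowest 2 were Cox7b with 145.9 and 151.4 TPM and Cox7a2 with 132.0 and 139.6 TPM. The highest mean gene TPM was 2.31 times the lowest. From protein-coding transcripts only, Cox5b had 77.2 and 73.4 TPM and Cox7b had 71.8 and 76.0 TPM, so both fell under 100 TPM.

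In complex V, the beta subunit gene Atp5b, which carries the catalytic sites, had the highest gene TPM of all members with 650.2 and 641.1 TPM, a rank that it loses when only protein-coding transcripts are summed. The alpha subunit gene Atp5a1 had 298.9 and 295.6 TPM, the gamma subunit gene Atp5c1 had 229.9 and 249.5 TPM and the epsilon subunit gene Atp5e had 224.3 and 227.1 TPM. Atp5d, the delta subunit gene, was the lowest of the 5 F1 genes with 82.1 and 78.0 TPM. Among the 8 genes of the stalk and membrane part, Atp5h was highest with 289.5 and 303.5 TPM, and Atp5mpl followed by mean with 201.3 and 208.2 TPM. Atp5f1, with 194.1 and 212.2 TPM, overlapped Atp5mpl and lay above it in replicate 2. Atp5k, with 112.8 and 101.5 TPM, and Atp5l, the subunit g gene, with 33.5 and 40.3 TPM, were lowest. Atp5s, a member by symbol that encodes coupling factor B and no structural subunit, had 7.72 and 7.38 TPM.

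The c-ring, which turns as protons pass, is built from copies of 1 mature protein that 3 genes encode. The last 78 codons of Atp5g1, Atp5g2 and Atp5g3 translate to the same residues, and differ at 63 of 234 bases. These coding ends are shown because they let reads of the genes be told apart even where the proteins are identical. They are from the leading coding transcript of each gene in GENCODE M21, written 5′ to 3′ on the gene's strand, with the positions that are not the same in all 3 genes in capitals.
Atp5g1 (chr11:96068852-96075670, minus strand): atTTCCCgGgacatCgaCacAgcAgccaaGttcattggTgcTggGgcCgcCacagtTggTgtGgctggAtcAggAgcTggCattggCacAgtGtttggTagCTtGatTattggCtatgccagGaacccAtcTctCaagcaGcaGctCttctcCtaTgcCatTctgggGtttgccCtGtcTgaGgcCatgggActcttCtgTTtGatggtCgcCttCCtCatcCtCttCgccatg
Atp5g2 (chr15:102662864-102672352, minus strand): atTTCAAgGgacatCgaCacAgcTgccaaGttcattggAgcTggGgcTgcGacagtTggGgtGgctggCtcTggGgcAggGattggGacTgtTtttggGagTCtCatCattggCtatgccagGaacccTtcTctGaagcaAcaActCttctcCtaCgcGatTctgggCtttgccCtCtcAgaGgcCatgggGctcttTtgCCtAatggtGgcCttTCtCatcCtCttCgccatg
Atp5g3 (chr2:73908447-73911326, minus strand): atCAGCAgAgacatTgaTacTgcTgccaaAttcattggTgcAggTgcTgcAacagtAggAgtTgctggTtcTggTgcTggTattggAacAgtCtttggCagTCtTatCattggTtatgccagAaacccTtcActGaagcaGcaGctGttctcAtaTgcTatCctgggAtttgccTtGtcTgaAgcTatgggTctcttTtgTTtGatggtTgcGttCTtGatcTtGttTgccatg
Over these ends Atp5g1 and Atp5g2 share 84.6% of bases, Atp5g1 and Atp5g3 78.6%, and Atp5g2 and Atp5g3 77.4%. The longest run of identical bases between any pair of full coding sequences was 20, between Atp5g1 and Atp5g2. Atp5g3 had 373.3 and 413.9 TPM, which was 52.3% and 55.8% of the TPM of the 3 genes. Atp5g1 had 274.8 and 239.3 TPM, or 38.5% and 32.3%. Atp5g2 had 65.2 and 88.1 TPM, or 9.14% and 11.9%. The order was the same in both libraries and the levels did not overlap, but the place of Atp5g2 depends on a near-identical copy described with the pseudogenes.

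In 6 of 7 sets of complex IV isoforms, over 90% of the TPM came from the widely expressed form in both libraries. The exception was COX6B. COX6B is a subunit on the outer face of complex IV, with Cox6b1 as the general form and Cox6b2 known as the testis form. Cox6b1 had 178.3 and 166.0 TPM (4058 and 3536 reads). Cox6b2 had 29.8 and 26.3 TPM (711 and 564 reads), which was 14.3% and 13.7% of the set (13.99% ± 0.467, SD, n = 2). No other tissue isoform reached 3 TPM in either library.

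Since a paralog could take reads of its relative, the coding sequences of the 2 genes are given, with bases that differ or have no partner in the alignment of their proteins in capitals, 5′ to 3′ on the gene's strand.
Cox6b1 (chr7:30616861-30626151, minus strand): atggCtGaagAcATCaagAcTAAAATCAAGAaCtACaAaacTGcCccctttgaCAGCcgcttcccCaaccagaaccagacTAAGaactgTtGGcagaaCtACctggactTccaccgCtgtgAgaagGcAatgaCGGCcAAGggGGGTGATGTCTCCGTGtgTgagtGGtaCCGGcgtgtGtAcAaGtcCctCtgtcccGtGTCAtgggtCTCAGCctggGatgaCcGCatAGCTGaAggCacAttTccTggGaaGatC
Cox6b2 (chr7:4751792-4753094, minus strand): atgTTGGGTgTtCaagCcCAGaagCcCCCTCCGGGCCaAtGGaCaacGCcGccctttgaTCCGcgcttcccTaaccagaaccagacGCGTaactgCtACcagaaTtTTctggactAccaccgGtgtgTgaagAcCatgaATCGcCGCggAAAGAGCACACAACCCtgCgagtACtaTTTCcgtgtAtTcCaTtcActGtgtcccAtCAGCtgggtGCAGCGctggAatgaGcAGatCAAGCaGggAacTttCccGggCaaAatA
The proteins aligned over 86 residues with 54.7% identity, the aligned codons shared 57.8% of bases, and the longest run of identical bases between the 2 coding sequences was 14. No row of another gene was near-identical to a transcript of Cox6b2 at 97% over 150 bases. Of the TPM of Cox6b2, 87.7% and 94.2% were assigned to protein-coding transcripts. Of 8 testis germ cell markers 7, among them Prm1, Prm2 and Tnp1, were at 0 in both libraries, and the summed level of the list was 0.18 and 0.11 TPM. Slc25a31, the testis form of the ADP/ATP carrier, was also at 0 in both. How reads were divided between Cox6b1 and Cox6b2, and which cells the Cox6b2 reads came from, was not tested.

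The remaining tissue isoforms were at or near 0. Cox6a2, the heart and muscle form of COX6A, had 2.08 TPM (67 reads) in replicate 1 and 0.33 TPM (10 reads) in replicate 2. Cox4i2, the lung form of COX4, had 0.57 and 0.62 TPM, from 21 reads in each library. Cox7a1, the heart and muscle form of COX7A, had no reads in replicate 1 and 0.46 TPM (6 reads) in replicate 2. Cox8b, the muscle and brown fat form of COX8, Cox8c and Cox7b2, both known as testis forms, and Ndufa4l2, a paralog of Ndufa4 that is induced by low oxygen, had no reads in either library. Allowing for 3 reads, a count of 0 permits up to 0.216 and 0.230 TPM for Cox8b, 0.143 and 0.153 TPM for Cox8c, 0.120 and 0.128 TPM for Cox7b2, and 0.0588 and 0.0631 TPM for Ndufa4l2 in replicates 1 and 2. These limits cover counting error only. The widely expressed partners Cox8a (257.9 and 251.3 TPM), Cox7b and Ndufa4 supplied all of the measured TPM of their sets. Striated muscle markers were low as well: 6 of 10 were at 0 in both libraries, and their summed level was 0.93 and 0.30 TPM.

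**Figure D2:**
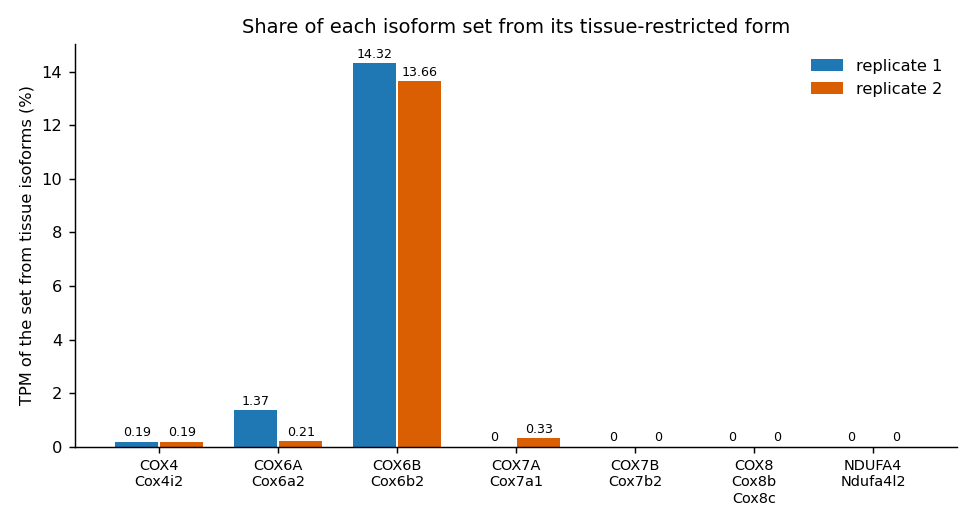
Share (%) of the summed TPM of each complex IV isoform set that came from its tissue-restricted genes, in replicate 1 (blue) and replicate 2 (orange). Cox6b2 supplied 14.3% and 13.7% of COX6B, while the tissue forms of the other 6 sets supplied at most 1.37%.

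Several low members had much of their sequence repeated elsewhere in the genome. Transcripts of 18 members matched the row of another, non-overlapping gene at 97% identity or more over at least 150 bases and over at least 50% of that gene's longest transcript. There were 27 such rows, 25 of them annotated as pseudogenes. For 4 members, these copies had more reads than the member itself in both libraries. Atp5l had 775 and 872 reads, whereas its copy Gm10221 (chr5:24581554-24581862), a processed pseudogene that matches it without a mismatch over 309 bases, had 4897 and 5341. Atp5g2 had 2384 and 3019 reads against 7741 and 7099 of Gm10175 (chr7:23946646-23947290), which matches it without a mismatch over 645 bases. Ndufb4 had 511 and 651 reads against 1061 and 968 of Ndufb4c (chr15:73809507-73809896), with no mismatch over 390 bases.

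Cycs was the fourth, with 6956 and 7322 reads. Its copies held 7881 and 8065 reads, chiefly Gm10053 (chr19:24875686-24876631) with 6192 and 5755 and Gm10108 (chr5:13121448-13121766) with 1689 and 2253. Gm10053 is annotated as protein-coding and matches Cycs at 99.9% over 946 bases. Reads within such a match fit both rows, and the quantifier divides them, so the level of the gene alone and that of the copy cannot be told apart there. With the TPM of the copies added, Atp5l came to 311.7 and 364.0 TPM, Atp5g2 to 341.8 and 359.7 TPM, Ndufb4 to 78.7 and 86.7 TPM and Cycs to 319.7 and 399.7 TPM. Under that sum Atp5l was no longer the lowest subunit of complex V, and Atp5g2 stood above Atp5g1, which came to 303.6 and 261.4 TPM. For the other 14 members with copies, the copies held at most 15.5% of the pooled reads in either library, the highest mean share being that of Ndufab1, which encodes the acyl carrier protein, with 15.5% and 13.8%. In TPM the copies of Cox7c, a small complex IV subunit gene, weighed more than in reads. They had 135.1 and 143.8 TPM against 164.4 and 173.2 TPM of Cox7c itself, which came to 299.6 and 317.0 TPM with them.

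**Figure D3:**
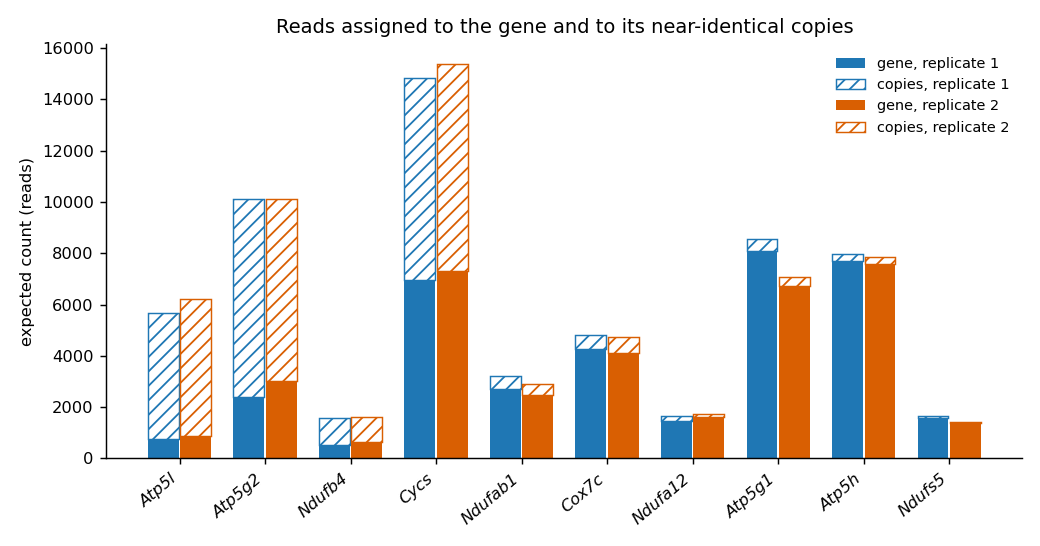
Expected counts of the 10 members with the largest share of reads on near-identical copies; filled bars are the gene's own row and hatched bars its copies, in replicate 1 (blue) and replicate 2 (orange). The hatched part is the larger one for Atp5l, Atp5g2, Ndufb4 and Cycs in both libraries.

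A gene's TPM sums over its transcripts, and for some members most of it was assigned to transcripts that the annotation does not class as protein-coding. Of the 90 members with a TPM above 0 in both libraries, the leading transcript supplied a median of 95.2% and 93.5% of the gene's TPM. It was protein-coding in 77 and of another class in 13, among them 6 retained introns and 4 processed transcripts. In Atp5a1, Atp5f1 and Ndufa10 it was classed as nonsense-mediated decay. Protein-coding transcripts supplied less than 50% of the TPM in both libraries in 11 members. Over members of 10 TPM or more in both libraries, 12 of 83 (14.5%) and 13 of 83 (15.7%) were under 50% in replicates 1 and 2. Over all protein-coding genes of that level the share was 12.5% and 12.3%, so the members were near the background.

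Atp5b was the most abundant of these. A processed transcript of 478 bases (ENSMUST00000126751.1, chr10:128088552-128090273) at the 3′ end of the gene held 70.3% and 68.9% of its TPM. Its coding transcript of 1916 bases held 101.4 and 115.8 TPM, which was 15.6% and 18.1%. At a mean of 108.6 TPM these coding transcripts lay below those of other members, among them Atp5g3 (378.0 TPM) and Ndufa4 (290.4 TPM). By reads, however, protein-coding transcripts held 47.4% and 51.9% of the gene, since TPM divides by length. Atp5f1, the peripheral stalk subunit b gene, had 14.4% and 8.61% of its TPM from coding transcripts, and Atp5j, the coupling factor 6 gene, had 11.9% and 14.6%. In Atp5f1 the nonsense-mediated decay transcript, of 1311 bases, held 82.4% and 86.8%. Ndufc1, a small membrane subunit of complex I, and Ndufa5, a peripheral subunit, had the lowest shares by mean. These were 4.09% and 1.93% for Ndufc1 and 0.356% and 12.2% for Ndufa5, whose share in replicate 2 lay above that of Atp5f1. In Ndufc1 a retained intron transcript of 311 bases led, with 58.5% and 66.7%. When TPM was summed over protein-coding transcripts only, the mean of the 2 libraries' medians was 53.9 TPM for complex I, 65.6 for complex II, 81.2 for complex III, 174.6 for complex IV and 135.1 for complex V, and complexes IV and V remained the highest.

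**Figure D4:**
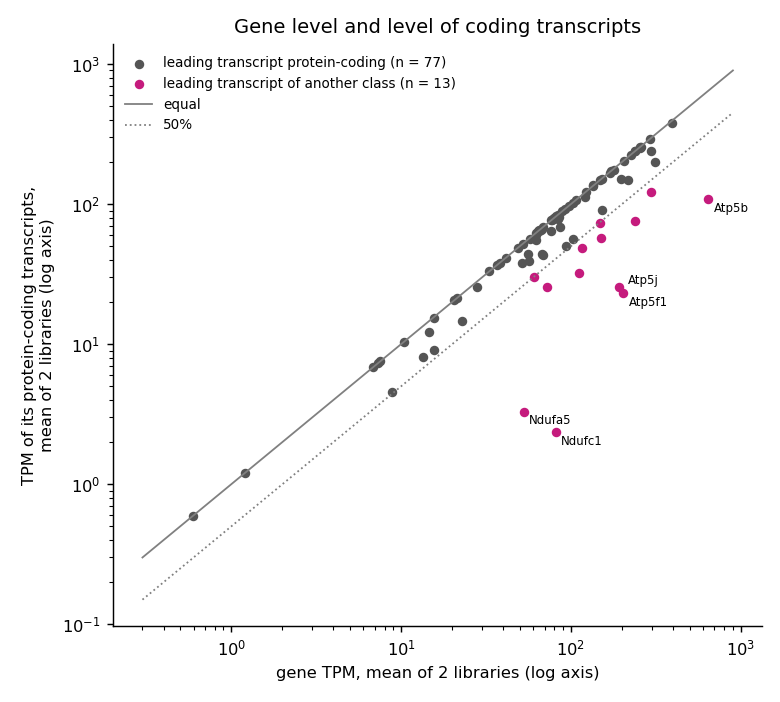
TPM of protein-coding transcripts against gene TPM (both log axes, means of the 2 libraries) for the 90 members with a TPM above 0 in both; grey points have a protein-coding leading transcript, pink points another class. The solid line marks equality and the dotted line 50%; Atp5b, Atp5f1, Atp5j, Ndufa5 and Ndufc1 lie well under the dotted line.

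Most of the TPM of each complex that has mitochondrial genes came from those genes. The 13 mitochondrial genes summed to 85964 and 91263 TPM and made 91.9% and 92.0% of the TPM of complex I subunits, 88.2% and 87.7% of complex III, 86.9% and 88.3% of complex IV and 90.6% and 90.7% of complex V. They ranged from mt-Nd4l, with a mean of 154.1 TPM, to mt-Atp8, with 20711 TPM. By TPM the lowest of them lay within the range of nuclear subunits, since mt-Nd4l had 148.0 and 160.3 TPM and Ndufb8 152.1 and 149.9 TPM. The expected counts of mt-Nd4l, 1460.32 and 1497.24, were not whole numbers, so some of its reads were shared with another feature. The search for near-identical rows covered members only, and how divided reads affect the levels of mitochondrial genes was not tested. Complex II has no mitochondrial gene.

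Few members differed strongly between the 2 libraries. An exact binomial test, two-sided, set each gene's reads against the ratio of the scaled libraries, with Benjamini-Hochberg adjustment over all rows tested. A gene was called where the adjusted p was under 0.05 and the log2 ratio was at least 1 in size. Such calls are between 2 libraries of 1 condition, and the test allows for counting error only. Of 90 members tested 1 was called, against 7.66% of the 14304 rows tested (1096). The called member was Cox6a2, with 67 and 10 reads and a log2 ratio of -2.39 (exact binomial test, adjusted p = 1.52e-09). The summed level of striated muscle markers was 0.93 TPM in replicate 1 and 0.30 TPM in replicate 2, and their part in the difference was not tested. None of the 84 members with a mean of 10 TPM or more was called by that rule, with either TMM or DESeq2 size factors. Of all 5416 protein-coding genes of that mean level 16 were called, so calls were rare at this level with or without membership. Without the minimum ratio 56 of 90 members were called at an adjusted p under 0.05 (62.2%), and 8446 of 14304 rows (59.0%) were, so that share was near the background.

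The median log2 ratio of replicate 2 over replicate 1 was 0.066 over the members and 0.00006 over all rows, and 59 of 90 members were higher in replicate 2. Among members with a mean of 10 TPM or more, the median absolute log2 ratio was 0.10, compared with 0.12 among 5416 protein-coding genes of that level. The largest ratios there were those of Ndufb4 (0.50), Atp5g2 (0.49) and Ndufa1 (0.39), a small X-linked subunit of complex I with 69.3 and 87.6 TPM. Pooled with the reads of their copies, Ndufb4 came to 0.19 and Atp5g2 to 0.15. Below 10 TPM the assembly factor Ndufaf5, with 554 and 296 reads, had a log2 ratio of -0.75.

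**Figure D5:**
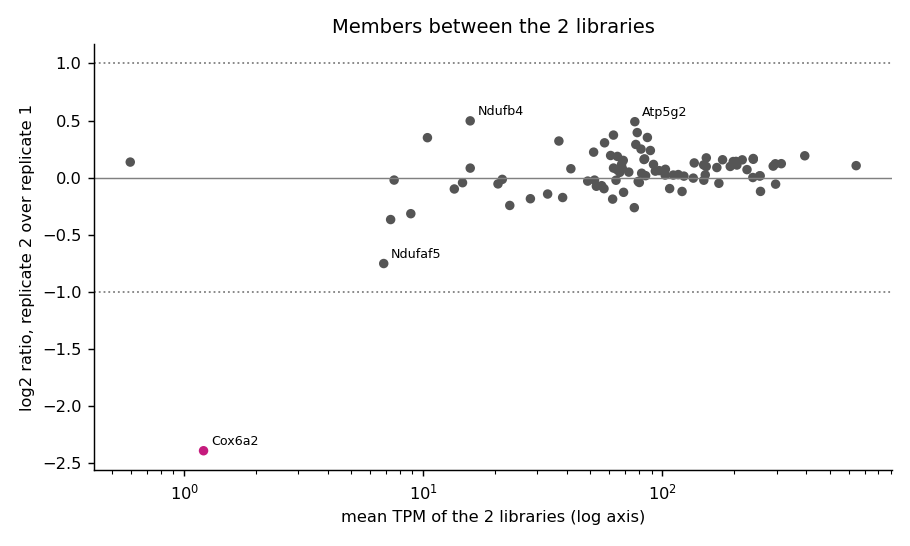
Log2 ratio of replicate 2 over replicate 1, from scaled counts, against the mean TPM of the 2 libraries (log axis) for the 90 members tested; dotted lines mark a log2 ratio of 1 in either direction and pink marks the called member. Cox6a2 stands alone at -2.39, and members above 100 TPM lie close to 0.

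Regulators of these genes were compared by level. NRF1, the GABP factors of the ETS family and YY1 are textbook activators of respiratory genes, and PGC-1 proteins are their coactivators. Of 16 genes listed for mitochondrial transcription and biogenesis, 15 reached 1 TPM in both libraries. Yy1 had 42.7 and 47.0 TPM, Gabpa 26.2 and 32.3 TPM, Gabpb1 23.6 and 19.9 TPM and Nrf1 11.1 and 14.5 TPM. Ppargc1a, the PGC-1 coactivator of muscle and brown fat, had 0.11 TPM (31 reads) in replicate 1 and no reads in replicate 2. Its relatives Pprc1, with 24.9 and 24.7 TPM, and Ppargc1b, with 2.32 and 2.83 TPM, were higher. Tfam, which packages and transcribes mitochondrial DNA, had 26.0 and 28.1 TPM.

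The start regions of the members were searched for short words that these factors are known to bind. RefSeq promoter windows of 300 bases (250 before and 50 after the start, GRCm38.p6) were matched to 77 of the 95 members, 2 of them by a RefSeq name for which the member's symbol is a synonym, and gave 82 windows. On either strand, the NRF1 core word GCGCANGCG was in 24 of 82 windows (29.3%), compared with 6.25% of all 32851 windows and 8.58% of those of protein-coding genes. The ETS word CCGGAAG was in 18 (22.0%), compared with 8.86% of all windows and 11.6% of coding ones. The YY1 word AAGATGGC was in 11 (13.4%), compared with 2.75% and 3.05%. The TATA box word TATAAA, on the gene's strand only, was in 3 (3.66%), compared with 8.32% and 8.26%. Member windows also held more CG pairs, with a median of 20 against 13 in coding windows, and the NRF1 and ETS words contain such pairs. In 9 of the 11 members with the YY1 word it lay on the gene's strand 10 to 38 bases after the start, while 31.5% of all windows with the word had it on that strand after the start.

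Stretches of 4 genes from before the start are printed as examples, cut so that no exon of a coding gene is included. They run 5′ to 3′ on the gene's strand, with NRF1 words in capitals. Cycs and Cox6a1 are widely used genes, Ndufb4 is the low subunit with a copy, and Cox6b2 is the testis form found here. The stretch of Ndufb4 ends 86 bases before the start, so its further NRF1 words at positions -79 and -22 are not shown.
Cycs (chr6:50566570-50566769, minus strand): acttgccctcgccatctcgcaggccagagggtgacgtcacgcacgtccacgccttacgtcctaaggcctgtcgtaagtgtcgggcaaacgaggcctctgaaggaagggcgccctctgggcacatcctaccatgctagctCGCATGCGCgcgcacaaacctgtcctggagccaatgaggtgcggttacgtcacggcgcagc
Cox6a1 (chr5:115348982-115349181, minus strand): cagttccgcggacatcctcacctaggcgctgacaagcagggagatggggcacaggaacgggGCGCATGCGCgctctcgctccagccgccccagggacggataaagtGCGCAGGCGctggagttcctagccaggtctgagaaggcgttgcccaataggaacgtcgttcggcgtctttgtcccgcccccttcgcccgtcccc
Ndufb4 (chr16:37654454-37654618, minus strand): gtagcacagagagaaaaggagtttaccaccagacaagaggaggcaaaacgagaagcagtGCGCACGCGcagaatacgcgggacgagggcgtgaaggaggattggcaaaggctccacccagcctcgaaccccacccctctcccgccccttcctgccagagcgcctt
Cox6b2 (chr7:4753095-4753225, minus strand): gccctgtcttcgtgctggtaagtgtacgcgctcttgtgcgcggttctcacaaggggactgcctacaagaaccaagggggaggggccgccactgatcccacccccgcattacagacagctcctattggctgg
None of the 4 tissue isoforms with a window (Cox6b2, Cox7a1, Cox7b2 and Cox8b) held the NRF1, ETS or YY1 word. At least 1 of these words was in 53.7% of member windows and 20.5% of coding windows, so 4 genes are too few to set them apart from coding genes. Their windows held 10, 7, 10 and 2 CG pairs in the order named. Of the 9 widely expressed complex IV genes with a window, 3 held the ETS word and 1, the printed Cox6a1, held the NRF1 word. The NRF1 word was in 7 of 14 complex V genes, 8 of 32 complex I genes, 2 of 5 complex III genes and 2 of 3 complex II genes. These matches are descriptions of the letters in the window and not binding sites.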

How the data were processed

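The data are total RNA-seq of 1 group with 2 libraries. Reads were quantified on mm10 with GENCODE M4, per the file list that the authors deposited. The columns are named as RSEM names them. The aligner, versions, strand setting and layout were not given in the sources used here. Expected counts, per the file headers, are estimated reads, and a read that fits more than 1 feature is shared out. The authors' TPM values share a fixed total across all rows, mitochondrial and small RNA included. The deposited percent values give each transcript's part of its gene's TPM. The deposited score columns hold bounds of a credibility interval around the posterior mean, and the 4 members at 0 in both libraries lay below them in both.

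Symbols, biotypes and positions came from GENCODE release M21 (GRCm38, of which mm10 is another name). Of 96 annotation entries that meet the symbol rule, 1 (a second Atp5o entry) has no row. Complexes, isoform sets, marker lists and named genes came from written lists and rules: all isoform set and complex II members, Cycs, the 2 highest and 2 lowest of each other class, called members or those with the largest ratios, and members under 1 TPM. A core subunit that this rule names is not reported here. The members and lists were chosen with earlier results of these data known. The search for near-identical rows and the sums over protein-coding transcripts were chosen after seeing the data, as were the members whose sequences are printed.

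Expected counts were rounded, filtered with filterByExpr and scaled by TMM in edgeR 4.0.16 (R 4.3.3), with a prior count of 2 in log2 ratios. An exact two-sided binomial test with Benjamini-Hochberg adjustment compared the libraries, and the step was tested on simulated data. Size factors of DESeq2 1.42.0 were an alternative. Near-identical rows were found with blastn 2.17.0, and 36 members overlap another row, 29 of them on the opposite strand. The p-values set the difference in reads between these libraries against counting error only, and do not cover other spread between libraries. Nothing says that the libraries came from separate animals. PCR copies are not independent, so limits from 3 reads cover counting error only.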

Additional observations from a re-analysis of the deposited data

How the results depend on the processing

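The order of the complex medians held under the settings below, while the order of single members did not: Atp5b, the highest at 645.6 TPM, had 108.6 TPM from protein-coding transcripts only. Rescaling TPM over protein-coding genes outside the mitochondrial genome raised the member median from 76.8 to 190.2 TPM and the medians of complexes I to V to 168.0, 199.2, 208.5, 562.7 and 505.1 TPM. With protein-coding transcripts only the member median was 63.7 TPM, and complexes I, II, IV and V had 53.9, 65.6, 174.6 and 135.1 TPM. With near-identical rows added it was 83.7 TPM, and complexes I, IV and V had 70.2, 247.0 and 232.7 TPM. Structural subunits alone had a median of 89.3 TPM. Leaving out either replicate gave member medians of 72.2 to 81.5 TPM, and 66.8 to 68.9, 79.5 to 81.3, 80.7 to 87.7, 219.6 to 234.8 and 197.7 to 210.2 TPM for complexes I to V. By these values the order was IV, V, III, II and I throughout. Without a filter on low counts, 2 members differed between the libraries instead of 1 (Cox7a1 with Cox6a2, when 17.2% of rows were called), and without a minimum ratio 56 did. The leading transcript's median share was 93.0% by posterior means, against 94.4%. Counts of members at 1 TPM (87 to 89), of isoform sets (5 at 99% of TPM, otherwise 6) and the median log2 ratio (0.035 to 0.076) moved little.

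The limits are those of 2 libraries and divided reads. No paired analysis was possible because there is 1 group. Some member levels depend on how the quantifier divided reads. They are those of members with near-identical copies, overlapping another gene, or with TPM on transcripts not classed as protein-coding. For the median member, with about 3050 reads per library, counting error alone allows a log2 ratio of 0.073 in either direction.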
